A study of Mus musculus with 5 samples.

Results

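The comparison described here follows mouse embryonic stem cell-derived cells kept in MPA from day 6 to day 8 of differentiation. It sets the array of cells collected at day 8 after 3 days in 2 µM MPA against the array of cells collected at day 6 after 1 day in it, 2 of the 5 arrays of the series. All probe sets with 1 gene symbol entered, which gave 18193 genes, and 12257 of them were measured, meaning that at least 1 of both arrays lay above a floor of 86.8, the median signal of all probe sets that are not array controls. The matching step without MPA, the day 8 control against the day 6 control, uses 2 other arrays and is given beside it as the control step, with 12824 measured genes. The remaining array is the untreated day 5 culture.

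The labels name no genotype or cell line for the 5 cultures, and all were grown on gelatin-coated plates by a protocol that aims at a pancreatic fate. MPA was added at day 5, so both MPA arrays come from cells that had differentiated for 5 days without it. The labels do not write the abbreviation out. Each group had 1 array, so what sets 2 arrays apart is given as a size without a test. Cultures hold mixed cells, and fewer cells of a type and less RNA per cell cannot be told apart in them.

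In such cultures pluripotent cells pass through a state that depends on Nodal, a secreted signal that its targets Lefty1 and Lefty2 restrain, and then form germ layers. Gut endoderm carries the transcription factors Sox17, Foxa1 and Foxa2, and pancreatic endoderm adds Pdx1, Ptf1a and Nkx6-1. Endocrine cells arise where Neurog3 is switched on for a short time, which turns on Neurod1 and Insm1, and they go on to make peptide hormones such as glucagon, ghrelin or peptide YY.

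The authors deposited MAS5 signals, a linear intensity per probe set, scaled alike on every array. The share of probe sets above the floor was 46.7% on the day 6 MPA array and 51.6% on the day 8 MPA array, against 49.9% and 51.9% on the controls. RNA integrity shows in the ratio of 3' to 5' probe sets. For Gapdh this ratio was 1.31 at day 6 and 1.57 at day 8 with MPA, against 1.19 and 1.55 in the controls, and for Actb it was 3.06 and 2.71 with MPA. Their part in the results was not tested. Over the 9333 genes above the floor on the 4 arrays of days 6 and 8, log2 signals of the day 8 MPA array correlated with the day 8 control at r = 0.961, with the day 6 MPA array at 0.912 and with the day 6 control at 0.91, as a description across genes of single arrays.

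From day 6 to day 8 with MPA, Nodal pathway genes and the endoderm gene Sox17 were far lower, and hormone, endocrine factor and contractile genes were far higher. At 2-fold or more, 936 genes were higher at day 8 and 936 were lower, each 7.64% of the measured genes. Counting differences of any size, 47.7% of the measured genes were higher and 52.3% lower. In the control step 907 genes were 2-fold higher (7.07%) and 825 were 2-fold lower (6.43%), and at any size 51.3% were higher and 48.7% lower. With MPA, 216 genes were 4-fold higher and 149 were 4-fold lower, against 143 and 99 in the control step. Of the 936 genes higher with MPA, 366 were also 2-fold higher in the control step, which is 39.1% of the MPA list and 40.4% of the control list. Of those lower, 350 were lower in both, 37.4% and 42.4% of the lists. The 2 steps correlated at r = 0.553 (Spearman's rho 0.459) over the 11249 genes measured in both, across genes that are not independent. The MPA step exceeded the control step by 2-fold or more in 798 genes (7.09%) and fell short of it by as much in 924 (8.21%), and at any size in 46.8% and 53.2%. Of 841 genes 2-fold apart with MPA that had another measured probe set, 672 (79.9%) had every other set moving the same way.

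One test was possible, of what both steps share. Limma was fitted on the 4 arrays with terms for day and for MPA, which leaves 1 residual degree of freedom. A gene's error joins its own disagreement between the 2 steps with a value pooled from this disagreement over genes of like signal. Neither part holds repeated cultures of a group, so the p-values say nothing of how such repeats would vary. Of 11599 genes tested, 670 (5.78%) passed an adjusted p under 0.05 (Benjamini-Hochberg), 344 higher at day 8 (2.97%) and 326 lower (2.81%). The count fell to 15 when a gene's probe sets were averaged, to 71 without the mean trend and robust options and to 89 with day as a straight line over 5 arrays. Of the 1825 genes 2-fold apart with MPA that entered the fit, 573 passed. Below, "rose" and "fell" are used of genes that passed, and "higher" and "lower" of differences between arrays. Unless the control is named, "higher with MPA" or "lower with MPA" means day 8 against day 6 within MPA.

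**Figure D1:**
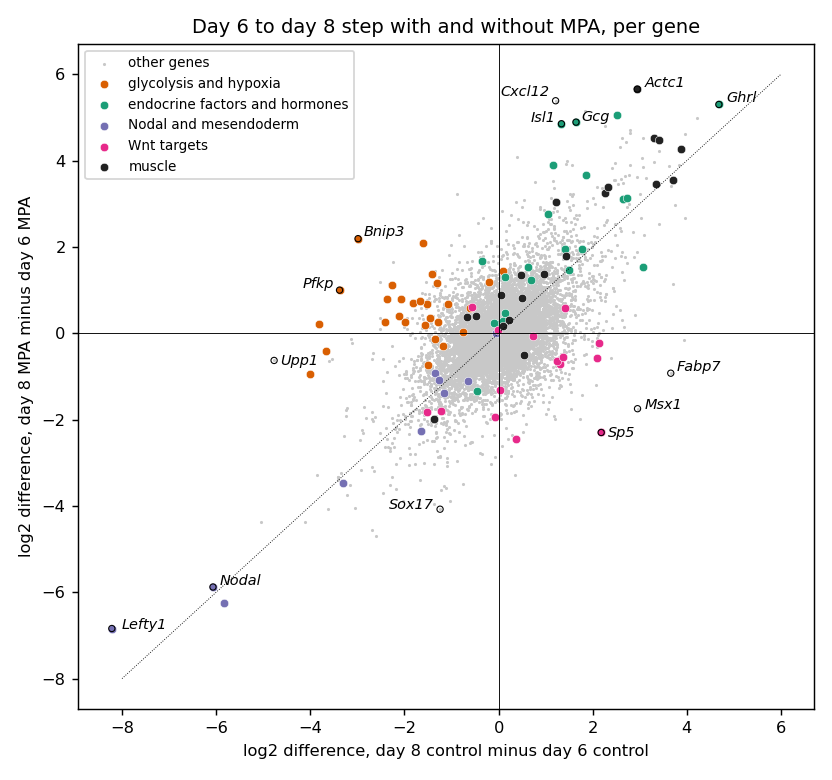
Each point is a gene measured in both steps, with the control step on the x axis and the MPA step on the y axis, both as log2 differences of day 8 minus day 6 after raising signals to the floor. The dotted line marks equal steps. Nodal lies at -6.07 and -5.88, near the line, and Bnip3 at -2.99 and 2.19, in the upper left with most glycolysis and hypoxia genes.

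Nodal signalling genes were at or near the floor by day 8 with MPA. Lefty1, a secreted Nodal antagonist, had a signal of 9942 at day 6 and lay under the floor at day 8 with MPA, at least 115-fold lower, against 25814 and under the floor in the controls. Lefty2, its relative, went from 6574 to under the floor with MPA, at least 75.8-fold lower, and from 4931 to under the floor without it. Nodal itself read 5942 and 101 with MPA, 58.8-fold lower, and 5943 and 89 without it. The day 6 levels of Nodal were nearly the same on both arrays, and so were those of day 8. All 3 genes fell in the limma fit, each at the lowest adjusted p of the table, 3.73e-05, with an estimate for Nodal of -5.97 on the log2 scale (SE 0.29, 4 arrays). Foxh1, a DNA-binding partner of the Smad proteins that Nodal activates, fell too, from 969 to under the floor with MPA (adjusted p = 0.0023, limma). Of 12 measured genes of the Nodal and mesendoderm list, 11 were lower with MPA, 8 of them 2-fold, with a median log2 difference of -1.25 against -0.0316 over all genes, and the control step's median was -1.26. Limma called 5 of the 10 tested, all lower, against 2.81% of all tested genes called lower.

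Pluripotency genes were split. Pou5f1, a core factor of the pluripotent state, had signals of 910 and under the floor with MPA, at least 10.5-fold lower, and 1016 and 96 in the controls, and it fell (adjusted p = 0.0021, limma). Dnmt3b, a de novo DNA methyltransferase, fell from 5094 to 1172 with MPA and from 4266 to 1336 without. L1td1, an RNA-binding protein of stem cells, read 1901 and 556 with MPA and 3160 and 335 without, and Sall4 read 7167 and 3544, then 6867 and 4253. Klf4, which also acts in epithelia, went the other way: it rose from 258 to 1956 with MPA, 7.58-fold, and from 144 to 672 without (adjusted p = 0.0053, limma). Of 18 measured members, 13 were lower and 5 higher with MPA, and the medians of the list were -0.281 with MPA and -0.276 in the control step.

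Early endoderm genes differed more between the steps. Sox17 had a signal of 8178 at day 6 and 485 at day 8 with MPA, 16.9-fold lower, and 3670 and 1550 in the controls, 2.37-fold lower. The MPA array was the higher one at day 6 and the lower one at day 8. Cxcr4, the receptor of Cxcl12 and a surface marker of early endoderm, went from 421 to under the floor with MPA and from 320 to 457 without. Neither passed the limma test (adjusted p = 0.297 for Sox17 and 0.47 for Cxcr4), which finds only what both steps share. Foxa1, a pioneer factor of gut endoderm, rose from 4076 to 9594 with MPA and from 2705 to 4339 without (adjusted p = 0.033, limma), and Foxa2 read 2236 and 3635 against 1378 and 1884. Krt19, a keratin of simple epithelium, was 4.05-fold higher with MPA, from 1975 to 8003, and 3056 and 3000 in the controls. The gut endoderm list had 8 members higher and 9 lower of 17 measured with MPA, and its median of -0.0237 changed sign under 4 of 7 alternative settings.

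All 10 measured transcription factors of endocrine cells were higher at day 8 with MPA, 8 of them 2-fold, against 7.64% of all genes, with a median log2 difference of 2.35. In the control step all 10 were higher too, 6 of them 2-fold, with a median of 1.10, and each of the 10 had the larger step with MPA. Just 5 genes of the list lay above the floor on either day 6 array. A gene under the floor at day 6 counts as measured only through day 8 and could only be higher. The counts of higher genes are thus partly fixed by the filter. Neurog3, the factor that starts endocrine differentiation, lay under the floor on both day 6 arrays and read 1295 at day 8 with MPA, at least 14.9-fold higher, against 193 without. Isl1, a factor of islet cells and of motor neurons, read 112 and 3249 with MPA, 28.9-fold higher, and 244 and 617 without. Neurod1, a target of Neurog3, rose from 249 to 2184 with MPA and from 98 to 646 without (adjusted p = 0.0027, limma). These factors had their highest signal of the 5 arrays on the day 8 MPA array. Insm1, a zinc finger factor of endocrine precursors, rose from under the floor to 745 with MPA and to 539 without (adjusted p = 0.0065, limma). St18, a zinc finger factor, went from under the floor to 585 with MPA and to 179 without. Pax6, which also marks neural tissue, was the exception in level: it rose from 157 to 605 with MPA and from 518 to 1770 without, so the day 8 MPA signal was the lower one of that day. Pax4 lay under the floor on every array. Limma called 4 of the 10, all higher, against 2.97% of all tested genes called higher.

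Hormone genes followed. Ghrl, the ghrelin gene, lay under the floor on both day 6 arrays and rose to 3415 with MPA, at least 39.4-fold, and to 2224 without (adjusted p = 0.00023, limma). Pyy, encoding peptide YY, rose from under the floor to 2890 with MPA, at least 33.3-fold, and from 134 to 764 without (adjusted p = 0.012, limma). Gcg, encoding glucagon and the gut peptide GLP-1, went from under the floor to 2572 with MPA, at least 29.6-fold higher, and to 271 without. In each of these genes the day 8 MPA array was the highest of the 5. Gcg missed the limma threshold (adjusted p = 0.062). Chgb, a protein of secretory granules, rose from under the floor to 1108 with MPA and to 312 without, and Cpe, which trims hormone precursors, rose from 2359 to 6836 and from 2546 to 3901. Sst, encoding somatostatin, was the reverse in level, with 250 at day 8 with MPA against 727 without, from under the floor at day 6 in both. Sct, encoding secretin, was lower at day 8 with MPA, 446 against 1124 at day 6, but its signal stayed above the controls' 203 and 148. Ins2 read 102 and 123 with MPA, barely above the floor. Of 14 measured genes, 13 were higher with MPA, 10 of them 2-fold, with a median of 1.60 against 1.45 in the control step. Just 7 genes of the list lay above the floor on either day 6 array. The others could only be higher at day 8 where they were measured, so these counts and medians are partly fixed by the filter.

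**Figure D2:**
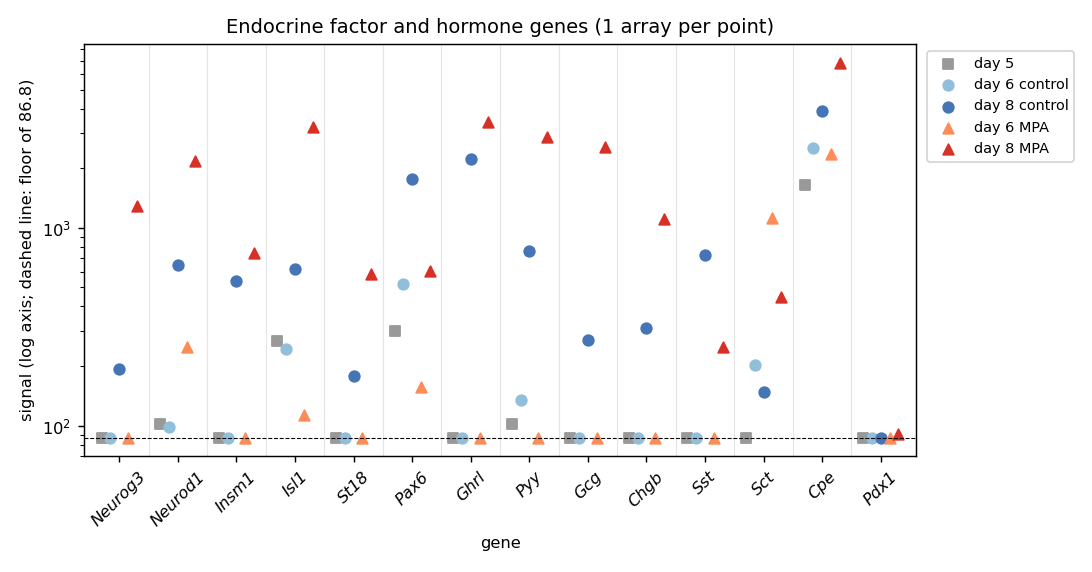
Signals of endocrine factor and hormone genes on the 5 arrays, 1 point per array, on a log axis with signals under the floor drawn at 86.8. For Neurog3, Isl1, Ghrl, Pyy and Gcg the day 8 MPA array is the highest point, and for Sst and Pax6 the day 8 control is.

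Members of the pancreatic progenitor list differed in level, with Pdx1, Ptf1a and Nkx6-1 at or near the floor and others well above it. Pdx1, the master factor of the pancreas, lay under the floor on every array but the day 8 MPA array, where it read 90.4, just above it. Ptf1a, the acinar and progenitor factor, read 158 at day 6 and lay under the floor at day 8 with MPA, and Nkx6-1 read 156 and 103. Those of these signals that lay above the floor were within a factor of 2 of it. Onecut2, a factor of early pancreas, liver and neurons, rose from 158 to 1304 with MPA and from 87.02 to 542 without (adjusted p = 0.0046, limma), and Onecut1 rose from under the floor to 387 with MPA. Mnx1, a factor of early pancreatic buds and of notochord, fell from 1225 to 508 with MPA and from 1518 to 421 without (adjusted p = 0.023, limma, which turned to 0.969 with the opposite sign with day as a straight line). Of 16 measured members of the list 10 were higher and 6 lower with MPA, with a median of 0.294. Against the day 8 control, 13 of 17 were higher with MPA and 4 lower.

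Liver and yolk sac genes were mostly lower or not measured. Apoe, a lipid carrier, fell from 3734 to 1022 with MPA and from 3614 to 890 without (adjusted p = 0.0024, limma), and Spink1, a trypsin inhibitor, fell from 1621 to 222 and from 622 to 264. Dab2 went the other way and rose from 269 to 914 with MPA and from 214 to 768 without (adjusted p = 0.0195, limma). Alb and Afp, which define hepatic and yolk sac cells, lay under the floor on both MPA arrays, as did Fga, Fgb and Fgg. Of 13 measured members 10 were lower with MPA.

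Contractile genes had some of the largest differences. Acta2, the smooth muscle actin, rose from 1344 to 25990 with MPA, 19.3-fold, and from 1127 to 16584 without (limma estimate 4.08 on the log2 scale, adjusted p = 3.73e-05). Tagln, an actin-binding protein of smooth muscle, rose from 965 to 21450 with MPA, 22.2-fold, and from 784 to 8338 without. Actc1, the cardiac actin, rose from under the floor to 4373 with MPA, at least 50.4-fold, and from 161 to 1240 without (adjusted p = 0.017, limma). Each had its highest signal on the day 8 MPA array. Acta1, the skeletal actin, rose 25-fold with MPA, from 95 to 2377, and from 142 to 988 without. Myl9, a regulatory light chain, rose from 296 to 3466 with MPA, 11.7-fold, and from 117 to 1531 without, 13.1-fold. Cnn1, a calponin, rose from 147 to 1211 with MPA and from 177 to 410 without.

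Genes named for the heart were mixed. Nppb and Nppa, natriuretic peptide genes of heart muscle, rose from under the floor to 1981 and 901 with MPA and to 859 and 437 without. Myh7, a myosin heavy chain, rose from 160 to 1761 with MPA and from under the floor to 885 without. Myl3, a light chain, fell from 4196 to 1064 with MPA (adjusted p = 0.0079, limma, and 0.87 with the opposite sign with day as a straight line). Defining heart genes were under the floor on both MPA arrays: Nkx2-5, Tnnt2, Myh6, Actn2, Ryr2 and Tbx5 among 11 of the list's 24. Of 13 measured members 11 were higher with MPA, and of 11 smooth muscle genes 10 were, with medians of 0.895 and 1.34 against 0.167 and 0.76 in the control step.

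Promoters of contractile genes can hold a CArG box, the sequence that serum response factor binds. Those of Actc1, Acta1 and Myl9 are shown because they hold a match, and were chosen after the values were seen; Acta1 is in neither muscle list. The windows are the 250 bases before the RefSeq transcription start (GRCm38.p6), written 5′ to 3′ on the gene's strand, with a CArG box match in capitals. Actc1 lies at chr2:114052876-114053125 (minus strand), Acta1 at chr8:123894776-123895025 (minus strand) and Myl9 at chr2:156775214-156775463 (plus strand).
Actc1: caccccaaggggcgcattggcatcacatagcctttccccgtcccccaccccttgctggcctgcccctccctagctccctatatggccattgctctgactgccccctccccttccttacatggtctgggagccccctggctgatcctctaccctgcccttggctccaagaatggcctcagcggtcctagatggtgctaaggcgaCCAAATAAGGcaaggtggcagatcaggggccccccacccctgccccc
Acta1: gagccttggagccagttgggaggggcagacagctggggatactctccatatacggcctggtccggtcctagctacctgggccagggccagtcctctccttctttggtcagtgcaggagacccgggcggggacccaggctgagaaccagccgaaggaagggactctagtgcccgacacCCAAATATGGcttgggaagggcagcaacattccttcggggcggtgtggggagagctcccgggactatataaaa
Myl9: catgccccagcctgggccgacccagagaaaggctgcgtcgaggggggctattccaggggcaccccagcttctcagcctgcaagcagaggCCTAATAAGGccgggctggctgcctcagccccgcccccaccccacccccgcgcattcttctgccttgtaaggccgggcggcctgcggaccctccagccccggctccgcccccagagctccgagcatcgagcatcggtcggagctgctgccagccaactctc
The matches start 47, 73 and 161 bases before the start site. Of 32851 such windows of all genes, both strands searched, 482 (1.47%) held a CArG box, against 1 of 8 windows of the smooth muscle list and 3 of 27 of the cardiac list. A match is a description of these letters and shows no binding.

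Most matrix and mesenchyme genes were higher as well. Col3a1, a fibrillar collagen, rose from 625 to 4884 with MPA and from 402 to 5367 without (adjusted p = 0.00047, limma). Snai2, a factor of epithelial to mesenchymal transition, rose from 164 to 2063 with MPA and from 363 to 2353 without, and Dlk1, an imprinted surface protein, from 97 to 1425 and from 102 to 1258. For these 3 genes the day 8 signals with and without MPA lay close together. Pdgfra, a receptor of mesenchymal progenitors, was 5.13-fold higher with MPA, from 219 to 1124, and read 306 and 343 without. Dcn went the other way and fell, with log2 differences of -1.42 with MPA and -1.83 without (adjusted p = 0.0326, limma). Of 26 measured members, 20 were higher with MPA, 12 of them 2-fold, with a median of 0.893 against 0.689.

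Among the other genes with the largest MPA step, some differed far less without MPA. Cxcl12, a chemokine that guides migrating progenitors, went from under the floor to 3626 with MPA, at least 41.8-fold higher, and from 217 to 502 without. Igfbp5, which binds insulin-like growth factors, went from 949 to 15964, 16.8-fold higher, and from 3687 to 4826 without, although its other measured probe set did not move the same way. Arg1, an arginase, went from 312 to 8733 with MPA and from 611 to 2917 without. The steps of Flrt2, an adhesion protein, and Sema3c, a guidance signal, were alike in both: Flrt2 rose from 125 to 3968 with MPA and from 128 to 2355 without (adjusted p = 0.00033, limma), and Sema3c rose from 287 to 6992 and from 192 to 2988. Among the lowest, Txnip, an inhibitor of thioredoxin that responds to glucose, fell from 2171 to 104 with MPA and from 1769 to 102 without (adjusted p = 0.00047, limma), and its relative Arrdc4 fell from 1129 to under the floor with MPA.

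Retinoic acid genes went both ways. Cyp26a1, which breaks down retinoic acid, fell from 12274 to 1359 with MPA and from 15006 to 1985 without (adjusted p = 0.00016, limma). Crabp2, a binding protein that carries it to the nucleus, was 4.44-fold lower with MPA, from 14248 to 3206, and read 35426 and 21976 without. Cyp26b1, a second enzyme of breakdown, was 3.68-fold higher with MPA, from 841 to 3093, and read 878 and 984 without. Aldh1a1, which makes retinoic acid, rose from under the floor to 1010 with MPA and from 95.3 to 522 without, and the nuclear receptor gene Nr2f1 rose from 257 to 5948 with MPA and from 778 to 4822 without. Of 20 measured members 13 were higher and 7 lower with MPA. Of the Hox genes measured, 5 of 5 in the Hoxa cluster, 5 of 7 in Hoxb, 2 of 4 in Hoxc and 2 of 4 in Hoxd were higher with MPA, against 5 of 7, 4 of 8, 2 of 5 and 3 of 4 in the control step. Medians of the Hoxd genes were -0.0495 with MPA, a sign that turned with log2(signal + floor), and 1.63 without. That of the Hoxc genes, 0.186 with MPA, turned as far as -0.146 over the alternative settings. Hoxa3 rose from 123 to 935 with MPA and from 279 to 784 without, and Hoxb1 fell from 1982 to 593 with MPA and from 2262 to 242 without.

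Most glycolysis and hypoxia genes went in opposite directions in the 2 steps. Of 28 measured genes, 23 were higher at day 8 with MPA, 7 of them 2-fold, while in the control step 27 of 28 were lower, 24 of them 2-fold. The medians were 0.628 with MPA and -1.59 in the control step, and all 28 genes had the higher step with MPA, where 46.8% of all genes measured in both did. The levels cross: at day 6 all 28 genes were lower with MPA than in the control (median log2 difference -1.22), and at day 8 27 of the 28 were higher (median 1.09). Bnip3, a mitophagy receptor that hypoxia-inducible factor switches on, read 2921 and 13338 with MPA, 4.57-fold higher, and 14278 and 1803 in the controls, 7.92-fold lower. Its signal on the day 5 array was 13658, so the day 6 control and the day 8 MPA array lay near it and both others far below. Ankrd37, an ankyrin protein induced by low oxygen, read 137 and 586 with MPA and 668 and 220 without. Pfkp, a phosphofructokinase, read 639 and 1277 with MPA and 2421 and 233 without, and its other measured probe set did not move the same way with MPA. Egln1, the oxygen sensor that marks hypoxia-inducible factor for destruction, read 1117 and 2902 with MPA and 3272 and 1232 without, and Hk2, a hexokinase, 2346 and 5254 against 7644 and 3084. The genes that were lower at day 8 with MPA were lower still in the control step: Ddit4, an inhibitor of mTOR signalling, read 7311 and 3790 with MPA and 21820 and 1367 without. Limma tests what the steps share and called 1 of the 28, against 5.78% of all tested genes.

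**Figure D3:**
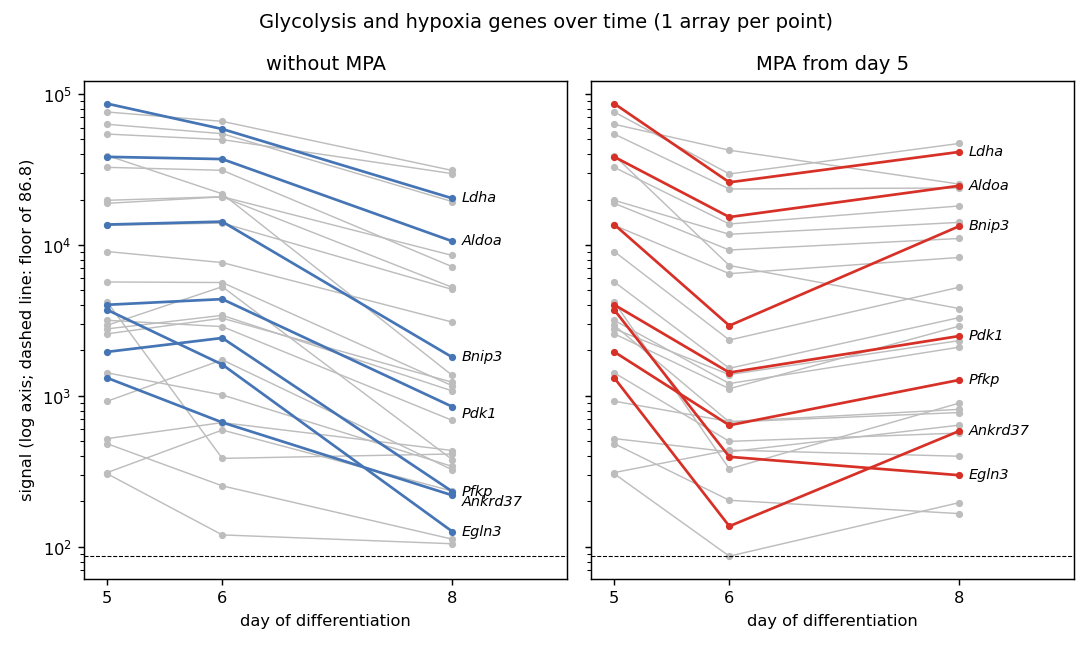
Signals of the 28 measured glycolysis and hypoxia genes at days 5, 6 and 8, without MPA (left) and with MPA from day 5 (right), 1 array per point on a log axis, with 7 genes labelled. Both panels start from the same day 5 array. Without MPA, Bnip3 reads 14278 at day 6 and 1803 at day 8, and with MPA 2921 and 13338.

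Hypoxia-inducible factor binds a short core, ACGTG or GCGTG, and 3 promoters of genes with opposite steps are shown for it. The windows are again the 250 bases before the RefSeq start (GRCm38.p6) on the gene's strand, with each core in capitals, on either strand, so that the letters CACGT and CACGC mark the reverse. Bnip3 lies at chr7:138909507-138909756, Pfkp at chr13:6648772-6649021 and Ankrd37 at chr8:45999851-46000100, all on the minus strand.
Bnip3: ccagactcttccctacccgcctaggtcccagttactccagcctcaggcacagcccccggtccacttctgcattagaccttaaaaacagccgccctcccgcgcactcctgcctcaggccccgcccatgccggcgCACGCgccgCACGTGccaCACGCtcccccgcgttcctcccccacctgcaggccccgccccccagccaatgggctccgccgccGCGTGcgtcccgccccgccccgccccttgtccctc
Pfkp: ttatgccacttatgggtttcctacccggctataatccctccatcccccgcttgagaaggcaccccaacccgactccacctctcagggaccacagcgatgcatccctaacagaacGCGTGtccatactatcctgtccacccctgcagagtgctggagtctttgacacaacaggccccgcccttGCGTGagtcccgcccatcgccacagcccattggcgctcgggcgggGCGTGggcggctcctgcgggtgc
Ankrd37: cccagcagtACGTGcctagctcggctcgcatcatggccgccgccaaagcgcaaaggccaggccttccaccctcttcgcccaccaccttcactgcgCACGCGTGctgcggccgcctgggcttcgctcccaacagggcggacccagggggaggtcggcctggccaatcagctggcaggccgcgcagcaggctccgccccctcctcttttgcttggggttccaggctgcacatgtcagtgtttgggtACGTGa
They hold 5, 3 and 4 matches. The core is common: 12679 of 32851 windows (38.6%) held at least 1, against 34 of 41 windows of the glycolysis and hypoxia list (82.9%) and 19 of 27 of the mitosis list (70.4%), whose genes were mostly lower in both steps. The windows are a description and show nothing of the factor's binding.

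Most cholesterol synthesis genes also had opposite steps, but as a set their levels met at day 8 rather than crossed. Of 20 measured, 18 were higher at day 8 with MPA and 17 were lower in the control step, with medians of 0.705 and -0.597, and 15 did both. At day 6 all 20 were lower with MPA than in the control (median -1.14), and at day 8 11 were higher and 9 lower (median 0.0461). Lss, which closes the sterol ring, read 683 and 1916 with MPA and 3037 and 1652 without, and Msmo1, a sterol oxidase, 2498 and 5689 against 8264 and 5472. Ebp, an isomerase, was the exception and fell from 2282 to 1016 with MPA and from 2947 to 1248 without (adjusted p = 0.021, limma). Amino acid supply genes were higher in 22 of 32 with MPA, though 24 of 32 lay below the control at day 8. The transporter gene Slc7a1 rose from 677 to 1952 with MPA and from 1155 to 3233 without. Mthfd2, a mitochondrial folate enzyme, rose from 736 to 2158 with MPA and from 1902 to 3768 without.

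The steps of epithelial genes leaned the same way with less size, but their levels did not start below the control. Against it, 16 of 23 were higher with MPA at day 6 (median log2 difference 0.307) and 21 of 23 at day 8 (0.842). Of 24 measured in the MPA step, 17 were higher at day 8 with MPA, 4 of them 2-fold. In the control step 16 of 23 were lower, and the medians of the steps were 0.402 and -0.201. Beside Krt19, Krt7 read 1614 and 3672 with MPA and 1010 and 1410 without, and Ocln, of tight junctions, 481 and 1041 against 339 and 294.

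Genes of cell division were lower. All 28 measured mitosis genes were lower at day 8 with MPA, where 52.3% of all genes were, 11 of them 2-fold, with a median of -0.858, and 27 of 28 were lower in the control step, with a median of -0.634. Ccnb2, a cyclin of mitotic entry, fell from 7687 to 2276 with MPA and from 7960 to 2614 without (adjusted p = 0.0021, limma), and Nusap1, a spindle protein, fell from 6031 to 2229 and from 5696 to 2706. Limma called 11 of the 28, all lower, against 2.81% of all tested genes called lower. DNA replication genes were lower mainly with MPA: 28 of 31 were lower, with a median of -0.589, against 20 of 31 and a median of -0.0843 in the control step. Cdc45, of the replicative helicase, read 967 and 377 with MPA and 843 and 795 without, and Rfc4, of the clamp loader, fell from 4552 to 1590 with MPA and from 3308 to 1802 without (adjusted p = 0.023, limma). At day 6 the replication genes were split against the control, 16 higher and 15 lower with MPA, and at day 8 27 of 31 were lower.

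Lists of growth and stress genes went both ways: guanine nucleotide supply, ribosome biogenesis and p53 targets had medians below 0 with MPA, and the amino acid response and imprinted growth genes had medians of 0.413 and 0.509. Of 20 measured genes of guanine nucleotide supply, 17 were lower with MPA and 8 in the control step, with medians of -0.513 and 0.0714. Ada, adenosine deaminase, fell from 1694 to 146 with MPA, 11.6-fold, and from 276 to 124 without (adjusted p = 0.047, limma), and Pnp, a purine phosphorylase, fell from 4918 to 2308 and from 5060 to 2887. Impdh1, which makes the guanine precursor, read 561 and 353 with MPA and 280 and 415 without. Ribosome biogenesis genes were lower in 20 of 30 with MPA and higher in 25 of 31 without, with medians of -0.248 and 0.248. All 21 measured ribosomal protein genes were higher with MPA, by a median of 0.264, but only 42.9% were after quantile normalization. Against the control, 19 of the 21 were lower with MPA at day 6 and 19 at day 8. Targets of p53 were lower in 21 of 27 with MPA, with a median of -0.465, against 15 of 26 and -0.163 in the control step. At day 6, 22 of 27 of these targets had been higher with MPA than in the control, and at day 8 19 of 25 still were. Gtse1, a p53 inhibitor of the G2 phase, fell from 1044 to 337 with MPA and from 636 to 272 without. Cdkn1a, the cell cycle inhibitor p21, was not lower: it read 4797 and 6169 with MPA and 2191 and 2711 without, and Mdm2 read 2106 and 1530 against 1109 and 1463.

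**Figure D4:**
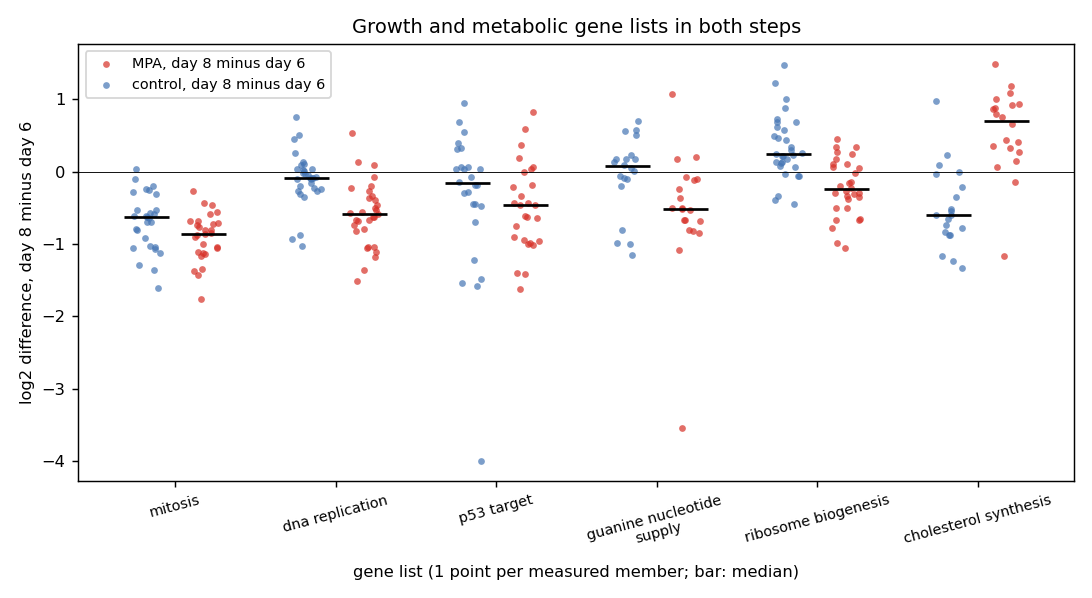
Log2 differences of day 8 minus day 6 for the measured members of 6 lists, in the control step (left points of each pair) and the MPA step (right points), with a bar at each median. The replication medians are -0.0843 without and -0.589 with MPA, and those of cholesterol synthesis -0.597 and 0.705.

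Wnt target genes were mostly lower with MPA, and in the control step more were higher than lower. Of 15 measured, 12 were lower with MPA, 6 of them 2-fold, and 10 of 16 were higher in the control step, with medians of -0.636 and 0.546. Among all measured genes, 52.3% were lower with MPA and 51.3% were higher in the control step. Sp5, a direct target of beta-catenin, read 1022 and 208 with MPA and 153 and 691 in the controls. With MPA it thus lay above the control at day 6 and below it at day 8. Lef1, a partner of beta-catenin, read 663 and 121 with MPA and 253 and 327 without, and Dkk1, a secreted Wnt inhibitor, 726 and 189 against 150 and 143. Of these targets 12 of 16 had been higher with MPA than in the control at day 6, and 11 of 14 were lower at day 8. Over all genes, 24 were 2-fold lower with MPA and 2-fold higher in the control step, and 18 were the reverse. The widest gap among the 24 was that of Msx1, a homeobox gene downstream of BMP and Wnt signals, which read 362 and 108 with MPA and 130 and 1004 without. Notch1 read 735 and 217 with MPA and 245 and 709 without, while its target Hey1 fell in both, from 2098 to 207 with MPA and from 2869 to 269 without (adjusted p = 0.00069, limma).

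Neural progenitor genes differed between the steps and neuron genes less so. All 17 progenitor genes measured in the control step were higher there, 11 of them 2-fold, with a median of 1.18, and with MPA 6 of 15 were higher and 9 lower, with a median of -0.154 that turned to 0.67 with the floor at the 75th percentile. Fabp7, a lipid-binding protein of radial glia, read 165 and under the floor with MPA and 146 and 1841 without. Irx3, a patterning factor, read 2734 and 749 with MPA and 5478 and 5651 without, and Zic1 went from under the floor to 193 with MPA and from 321 to 4188 without. Neuron genes were higher with MPA in 15 of 17, with a median of 1.16 against 1.34 in the control step. Against the day 8 control, 16 of 21 were lower with MPA. Nefm and Nefl, neurofilament chains, rose from 104 to 2409 and from 167 to 2389 with MPA. Without it they rose from 268 to 2235 and from 442 to 2348.

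Genes of antigen presentation and interferon response were lower in both steps. Of 21 measured, 17 were lower with MPA, 13 of them 2-fold, with a median of -1.21 against -1.01. Ifitm3, a membrane protein, fell from 3410 to 409 with MPA and from 2126 to 569 without (adjusted p = 0.0042, limma), and H2-D1, a class I antigen whose probe sets may also read its close relatives, fell from 1044 to 275 and from 2108 to 582. Limma called 10 of 20, all lower, against 2.81% of all tested genes called lower. Imprinted growth genes were higher in 15 of 18 with MPA: Peg3 rose from 20819 to 66461 with MPA and from 15459 to 51622 without (adjusted p = 0.00047, limma), and Igf2, a growth factor, rose from 587 to 2246 and from 581 to 1481.

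Markers of other cells that the cultures could hold differed in level. Of 22 endothelial and blood genes on the array, 14 lay under the floor on both MPA arrays, among them Pecam1, Cdh5, Tal1, Gata1 and Ptprc, while the receptor gene Flt1 fell from 3126 to 663 with MPA and Runx1 read 166 and 647. Of 10 immune genes, 7 lay under the floor on both, with Ptprc and Itgam among them. Of 19 trophoblast and extraembryonic genes, 3 lay under the floor on both MPA arrays. Of the 16 measured, 8 were higher and 8 lower with MPA, with Tfap2c at 1004 and 145 with MPA. Over all 44 lists, 26 had a median above 0 in the MPA step.

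**Figure D5:**
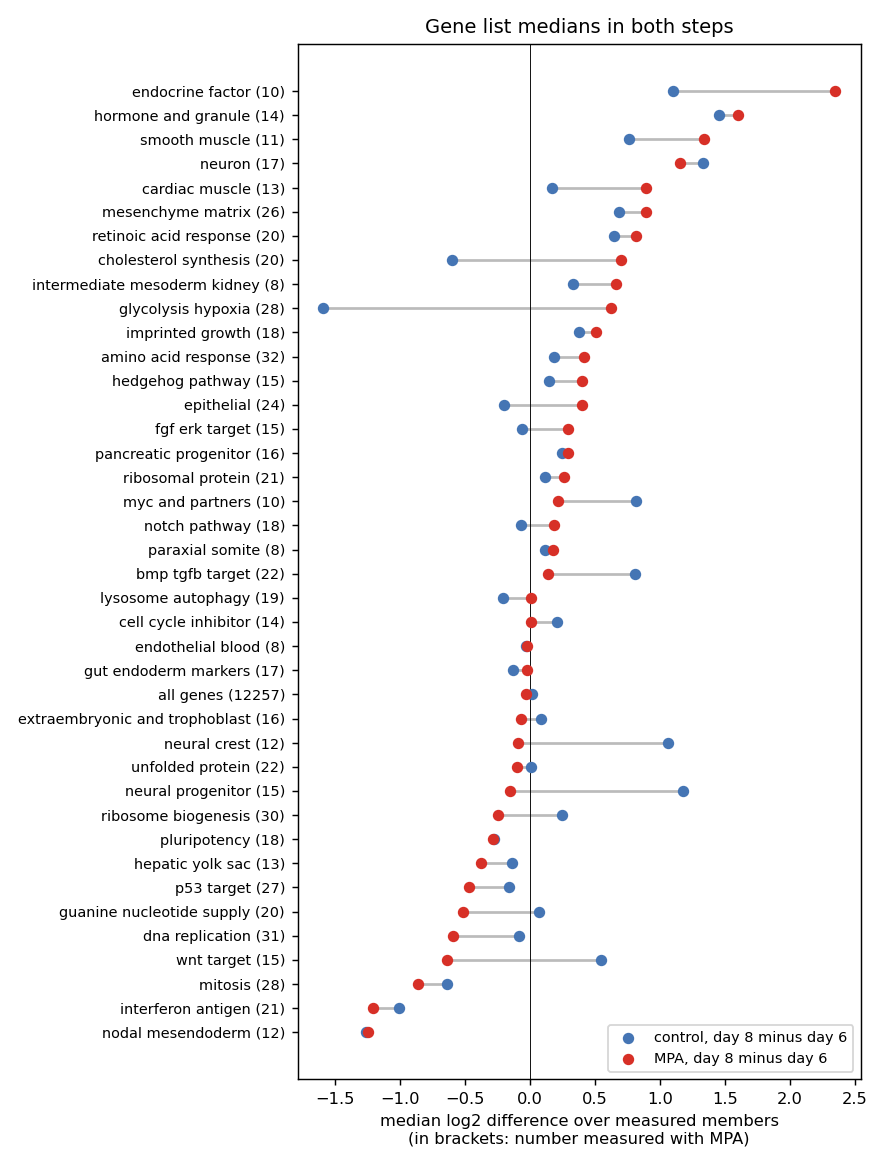
Median log2 difference of day 8 minus day 6 over the measured members of each gene list with 8 or more members measured, with MPA and without, and over all genes. The number in brackets is the number measured in the MPA step. The widest gap is that of glycolysis and hypoxia, at 0.628 with MPA and -1.59 without.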

How the data were processed

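RNA of 5 mouse embryonic stem cell-derived cultures, 1 array per group, was measured. Total RNA (100 ng per sample) was turned into biotinylated cRNA for Affymetrix arrays, per the labels' protocols. For every probe set the authors deposited a linear signal intensity. The submitters' processing notes name MAS5 without version or settings. The deposited values have a 2% trimmed mean of 500 on each array.

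Of 45101 probe sets, 64 were controls, 34945 had 1 gene symbol, 932 had several and 9160 none in the annotation given. Those with 1 symbol gave 18193 genes, and each of the 9010 genes with several was read from its brightest one over the 5 arrays. Of these probe sets 34741 matched the RefSeq table (GRCm38.p6, names only). Signals were raised to the floor, 86.8, and taken to log2. Where 1 of both arrays is at the floor, the fold is a lower bound, written "at least", and log2 differences of such genes are understated. Such a gene counts as measured only through the other array, which fixes the direction of its difference. Depth has no meaning for arrays, and their number limits the precision.

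The test was limma 3.58.1 (R 4.3.3; lmFit, eBayes with trend and robust) on genes that 2 or more of the 4 arrays held above the floor, adjusted by Benjamini-Hochberg. Tested on simulated data of 11599 genes, it called 20.9%, 90.9% and 100% of genes changed by a log2 of 1, 2 and 3 in both steps, and 4 of 11399 unchanged genes. The simulated errors were normal, with a spread shared by genes of like signal, and each change was alike in both steps. Real genes need not keep to this, so these rates are no estimate of the error rate in the data. Nothing in the labels says whether arrays come from separate cultures beyond their groups.

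The members and the 44 gene lists (799 of 868 names matched) were chosen with earlier results of these data known, so no list was tested as a whole. Lists are described by medians and by counts, limma calls among them. The shares of all genes given beside these counts are a description and no evidence for a list. Named genes were the 15 highest and 15 lowest above the floor on both MPA arrays, the 12 highest and 12 lowest with 1 array at the floor, the 10 highest and 10 lowest step differences, up to 6 per list with the largest MPA step, and 20 fixed names. List members at the floor, Foxa1, Cpe, Sct, Cyp26b1 and Ddit4 were named outside it after their values were seen. Not every allowed gene is printed. Alternatives were quantile normalization, median centring, a floor at the 25th or at the 75th percentile, adding the floor to the signal before log2, averaging a gene's probe sets, leaving out probe sets ending in _s_at, _x_at or _a_at, and for limma also no filter, plain eBayes and day as a straight line over 5 arrays.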

Additional observations from a re-analysis of the deposited data

Results flagged for a closer look

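In 15 named genes both steps were 2-fold or larger and ran in opposite directions with and without MPA. Each step is a difference of 2 arrays, so the difference between the steps was not tested. It is given here as the log2 MPA step minus the log2 control step. Among genes higher with MPA and lower without, it was 5.18 for Bnip3, 3.89 for Ier3, an early response gene, 3.71 for Pgm1, a phosphoglucomutase, 3.70 for Ankrd37, 3.07 for Vldlr, a lipoprotein receptor, 2.79 for Egln1 and 2.47 for Hk2. Among genes lower with MPA and higher without, it was -4.70 for Msx1, -4.48 for Sp5, -3.72 for Sema3f, a guidance signal, -3.30 for Notch1, -3.27 for Grrp1, -3.22 for Kpnb1, an importin, -3.17 for Mfsd3 and -2.81 for Zic2, a neural factor. In Kpnb1, 1 of 3 other measured probe sets moved the same way.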

How the results depend on the processing

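The labels give no replicate numbers, so no replicate block could be fitted; the limma fit has MPA as a term and so compares the days within each treatment. Counts of 2-fold genes moved with the floor. With the floor at the 25th percentile, 2903 genes were higher and 2717 lower in the MPA step, 3005 and 2770 in the control step, 2570 and 2775 in the step difference, and 498 and 478 were opposite (higher and lower with MPA). With the floor at the 75th percentile the same counts were 430 and 402, 333 and 349, 282 and 273, and 9 and 2. With the mean over probe sets they were 578 and 585, 527 and 539, 498 and 587, with 15 opposite genes lower with MPA, and with log2(signal + floor) there were 14 of these. Limma called 335 genes after quantile normalization, 400 with the floor at the 75th percentile, 393 without probe sets ending in _s_at, _x_at or _a_at, 15 with the mean over probe sets, 71 with plain eBayes and 89 with day as a straight line, against 670; 2535 had an unadjusted p under 0.05. Adjusted p-values of named genes that passed were counted once per gene and alternative setting. Among these refits, 865 stayed under 0.05, 419 did not and 4 changed sign. Of 582 steps of named genes, 28 changed sign under at least 1 setting (5 with MPA, 23 without). Of these, 2 were 2-fold or more, Kpnb1 (control step -0.269) and Mcm10 (MPA step 0.112), both without those probe sets. Another 7 were of 0.5 or more on the log2 scale: with MPA Gmps (-0.848, at most 0.378), Hoxc6 (0.878, at least -0.179) and Sall1 (-0.653, at most 0.0573), and without MPA Gmps (-0.985, at most 0.453), Hoxc6 (-0.771, at most 0.229), Kif2c (-0.617, at most 0.164) and Tnfrsf10b (0.682, at least -0.163). Signs also turned for the share of ribosomal protein genes higher (42.9% after quantile normalization), and for limma's Mnx1 (adjusted p = 0.969), Sfrp5 (0.956) and Myl3 (0.87) with a straight line and Gmps (0.341) with the mean over probe sets. Their cause was not tested. With the floor at the 75th percentile no Hoxd gene or immune marker of the lists was measured. Of named genes' MPA steps, 1807 of the refits kept their direction and side of 2-fold, 115 dropped under it and 32 passed it. The medians of glycolysis and hypoxia genes ranged from 0.52 to 0.679 with MPA and from -1.65 to -1.44 without.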
